A study of Mus musculus with 49 samples.

Results

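Glycerol 3-phosphate supply and triglyceride synthesis were followed in white fat of 2 inbred mouse strains through 9 genes: Gpd1, Pck1, Gyk, Aqp7, Gpam, Agpat2, Lpin1, Dgat1 and Dgat2. They were taken by symbol from 5 tables, so 9 of 22869 gene symbols are described. Where a symbol had several transcript rows, the row with the highest total was used, which concerned Gyk (2 rows) and Lpin1 (3 rows), while the other 7 genes had 1 row each. All 9 genes had values above the floor of 1 in each of the 43 libraries, the lowest being 44 for Gyk. No filter on low values was applied, and each gene entered each of 11 comparisons.

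Triglyceride is stored in fat cells by joining fatty acids to a glycerol 3-phosphate backbone. Glycerol 3-phosphate dehydrogenase (Gpd1) makes the backbone from a glycolytic intermediate. That intermediate comes from glucose or, by a route through phosphoenolpyruvate carboxykinase (Pck1, glyceroneogenesis), from small carbon precursors. Glycerol kinase (Gyk) makes the backbone from glycerol, which crosses the cell membrane through the aquaglyceroporin Aqp7. The acyltransferases Gpam and Agpat2 add the first fatty acids, the phosphatase Lpin1 makes diacylglycerol, and Dgat1 and Dgat2 each can add the last fatty acid. Several of these genes are textbook targets of PPARG, the nuclear receptor that directs fat cell differentiation, and Gyk is known for its low level in white fat.

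The study compared C57BL/6 with 129S1/SvImJ mice and asked, among other things, how fat of the strains responds to rosiglitazone, an antidiabetic drug that activates PPARG. Epididymal fat (eWAT, a visceral white depot) came from mice on standard chow (5 libraries per strain) and from mice on a control low fat diet from 6 to 16 weeks of age. These mice then ate the same diet for the final 2 weeks, without drug or with 36 mg rosiglitazone per kg of diet, until 18 weeks (4 libraries per strain and treatment). In separate experiments, eWAT (5 C57BL/6 and 4 129S1/SvImJ libraries) and inguinal fat (iWAT, the subcutaneous white depot of the groin, 4 libraries per strain) came from mice fed the low fat diet for 12 weeks. Among these 12-week libraries, C57BL/6 eWAT was named in another pattern, and each group was numbered in a stretch apart from the others. In the 12-week comparisons strain or depot thus coincides with the set of libraries, and the part of the set was not tested. The labels name no gene alteration, and whether each library of a group came from its own mouse is not said, so a p-value here reflects library-to-library spread that may in part be technical. In whole tissue, fewer cells of a type and less RNA per cell cannot be told apart.

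The values are normalized whole numbers without a unit, and the read depth behind them is unknown. Libraries of 1 experiment share their highest values, so that near the top a value stands for a place in the ranking and equal values recur. The fat cell markers Adipoq, Fabp4 and Plin1 were high in each library except the chow library labelled 129S1/SvImJ replicate 2, where the summed level of 8 adipocyte markers was 22634 against 118517 to 173513 in the other chow libraries. In that library 58238 was listed for Lcn5, a gene of the epididymis, and in both 129S1/SvImJ chow replicates 1 and 2 the epididymal gene Crisp1 stood at 33942 and 39892. Values were coarse in the 4 libraries of C57BL/6 iWAT, with 467 to 679 distinct values each. Among them, and among the 129S1/SvImJ iWAT libraries, replicate 4 stood apart by Ucp1, the uncoupling protein of heat-producing fat cells, with 2108 and 2392. Skeletal muscle markers summed to 12188 in 1 C57BL/6 eWAT library of the 12-week experiment, against a group median of 255.

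Of the 9 genes, 6 had an entry in a RefSeq promoter table (GRCm38.p6, 250 bases before to 50 bases after the start of each gene), Gyk under its current symbol Gk. Gpd1, Dgat1 and Dgat2 had no entry and were not searched. Promoters are shown for Aqp7 and Agpat2, which rose together with the drug in C57BL/6 fat, and for Pck1, a known PPARG target for which no change with the drug passed the test. In the first, capitals mark the match to a direct repeat of AGGTCA with 1 base between the copies, the arrangement that PPARG and its partner RXR are known to bind, allowing 2 mismatches in the 12 fixed bases. In the second they mark GGGCGG, and in the third TGACG read on the opposite strand.
Aqp7, chr4:41048087-41048386, minus strand: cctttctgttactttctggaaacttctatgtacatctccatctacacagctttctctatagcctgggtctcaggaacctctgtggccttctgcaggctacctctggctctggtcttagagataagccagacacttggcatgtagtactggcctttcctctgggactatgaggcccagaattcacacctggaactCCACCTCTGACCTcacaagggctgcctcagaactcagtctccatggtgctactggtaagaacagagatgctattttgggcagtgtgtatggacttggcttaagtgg
Agpat2, chr2:26604368-26604667, minus strand: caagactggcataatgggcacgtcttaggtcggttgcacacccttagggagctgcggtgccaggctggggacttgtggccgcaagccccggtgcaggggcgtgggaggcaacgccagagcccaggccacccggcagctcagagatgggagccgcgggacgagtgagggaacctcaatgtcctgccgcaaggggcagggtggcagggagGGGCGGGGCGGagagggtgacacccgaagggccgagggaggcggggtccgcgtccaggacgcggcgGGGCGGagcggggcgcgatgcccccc
Pck1, chr2:173152823-173153122, plus strand: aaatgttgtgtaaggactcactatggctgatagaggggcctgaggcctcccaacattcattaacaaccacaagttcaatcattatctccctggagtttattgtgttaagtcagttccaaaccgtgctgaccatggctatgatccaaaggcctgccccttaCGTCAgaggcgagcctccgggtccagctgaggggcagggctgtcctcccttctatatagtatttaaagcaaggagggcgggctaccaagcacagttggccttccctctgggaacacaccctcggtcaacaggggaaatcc

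Both strands were searched. None of the 6 members with a promoter entry held the repeat without a mismatch, and 0.0399% of 32544 different promoter windows did. With 2 mismatches allowed, Aqp7 was the only member of the 6 with a match, AGGTCAGAGGTGG on the opposite strand at -56 to -44 from the start, and 3.87% of all windows held such a match. The second Aqp7 window in the table, from another start, held the same match and AGGGGAGAGGTCA. The single copy AGGTCA, which lies within the Aqp7 match, was also found in Lpin1 and in the second of 2 Gpam windows, and 16.2% of all windows held it. GGGCGG occurred 3 times in Agpat2, with the first 2 copies overlapping, 1 time in Pck1, 3 times in Gyk and 1 time in the second Gpam window, and in 35.9% of all windows. TGACG occurred in Pck1 at -90 to -86, in Gyk and in the second Gpam window, and in 20.9% of all windows. CACGTG was found in Gyk (7.17% of all windows), CCAAT in the first Gpam window (37.4%), and TATAAA in none of the 6 members (13.6%). These matches describe letters in the windows and say nothing about binding.

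Per kb of transcript, the members covered a wide range of levels. In C57BL/6 eWAT on control diet, Pck1 had the highest mean level per kb (6418 ± 1695, SD, n = 4), followed by Dgat2 (4700 ± 202) and Gpd1 (1620 ± 204). Lpin1 (1060 ± 217), Agpat2 (781 ± 64.8), Aqp7 (529 ± 68.3), Dgat1 (511 ± 17.4) and Gpam (468 ± 154) came next, and the last 3 overlapped in their ranges. Gpd1 and Lpin1 overlapped too, with a lowest Gpd1 value of 1347 and a highest Lpin1 value of 1364. Gyk was far below, at 12.2 ± 2.06 per kb. In 129S1/SvImJ eWAT on the same diet Dgat2 (8150 ± 1436) stood above Pck1 (5658 ± 720) with no overlap, whereas the ranges of the pair overlapped in C57BL/6 at its upper Dgat2 value (4875) and lowest Pck1 value (4759).

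Rosiglitazone raised 4 of the 9 genes in C57BL/6 eWAT, Gpd1, Aqp7, Agpat2 and Dgat1, against 2.43% of all genes called in either direction. The largest rise was that of Gpd1, which makes glycerol 3-phosphate from a glycolytic intermediate. Its values were 3853, 4519, 5081 and 5081 on control diet and 9191, 12430, 12430 and 12430 on the drug. All treated libraries lay above all controls, and 3 of them shared 1 plateau value. The log2 difference was 1.32 ± 0.12 (SE; 2.50-fold; limma adjusted p = 2.19e-06).

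Aqp7, the glycerol channel, rose less, from 1472, 1475, 1288 and 1114 to 1754, 1691, 1820 and 1901. The groups did not overlap, with a log2 difference of 0.43 ± 0.10 (limma adjusted p = 0.0183). Agpat2, which makes phosphatidic acid, rose from 1154, 1037, 1194 and 1268 to 1861, 1574, 2317 and 2208. Each treated library again exceeded each control (log2 difference 0.76 ± 0.12, 1.70-fold, limma adjusted p = 0.00119). Dgat1, one of the enzymes of the last step, went from a narrow range of 934 to 1003 to 1316, 1053, 1331 and 1317, with replicate 2 of the drug group near the controls. Its log2 difference was 0.37 ± 0.09 (limma adjusted p = 0.0300).

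The call for Aqp7 was lost without control replicate 3, drug replicate 3 or drug replicate 4 (limma adjusted p = 0.0532, 0.0606 and 0.0766). That for Dgat1 was lost without control replicate 1, 2 or 3 or drug replicate 1, 3 or 4 (limma adjusted p from 0.0525 to 0.112). Fitted on the C57BL/6 libraries alone, only Gpd1 of the 4 remained called (limma adjusted p = 0.0318), with Agpat2 at 0.0886, Dgat1 at 0.144 and Aqp7 at 0.159. The other members were not called in C57BL/6. Pck1 had 15186, 17219, 12665 and 23240 on control diet and 18383, 13106, 11318 and 11674 on the drug, a log2 difference of -0.32 ± 0.19 (limma adjusted p = 0.499) with overlapping groups. Gyk had 56, 44, 62 and 45 against 81, 63, 89 and 62 (0.50 ± 0.16, limma adjusted p = 0.107). Here the highest control value equalled the lowest treated one.

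**Figure D1:**
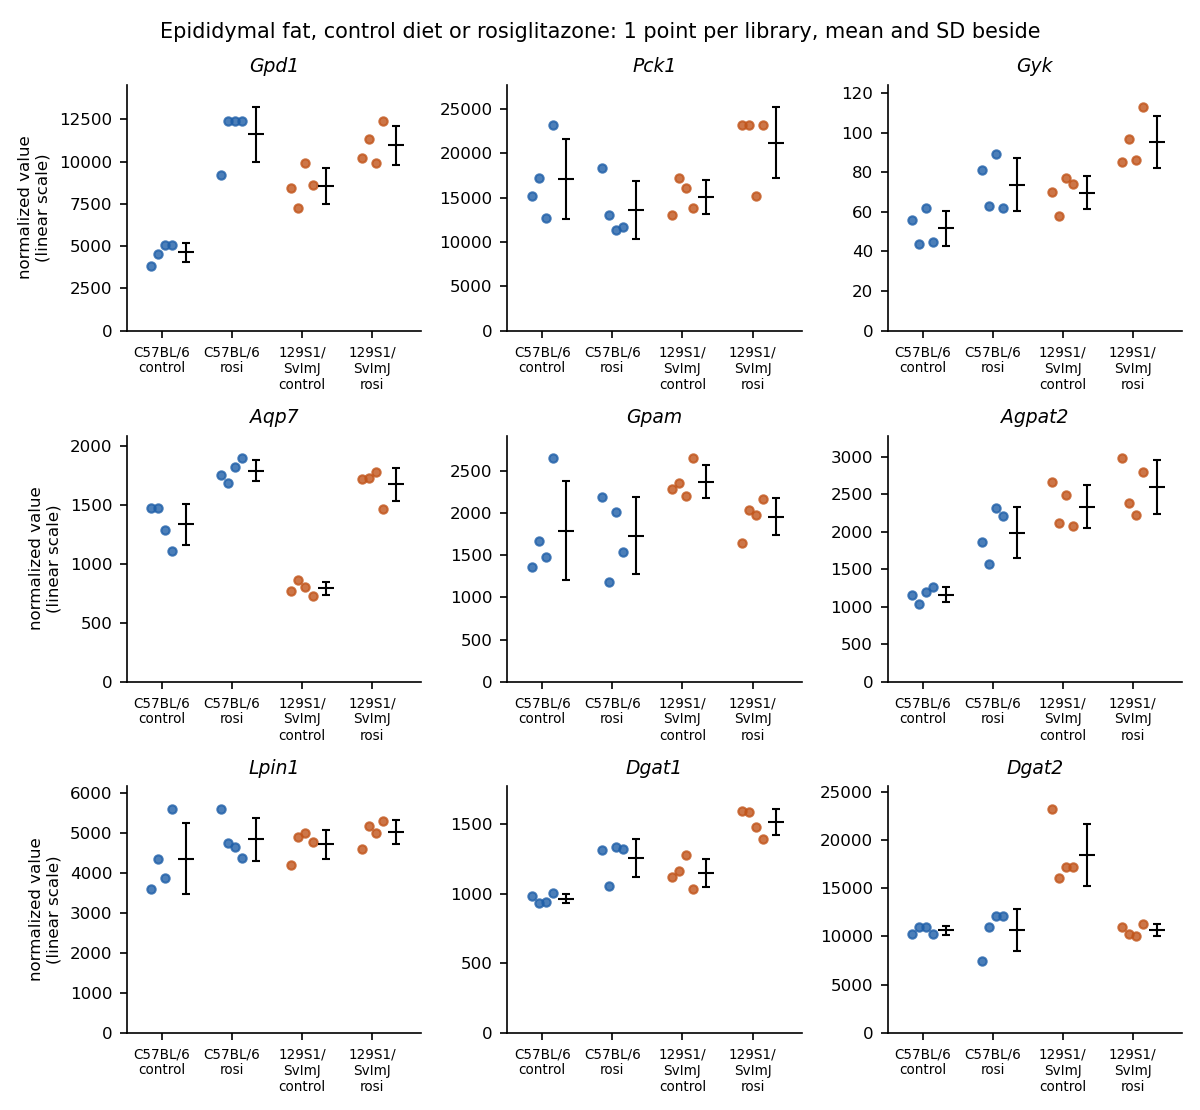
Normalized value (linear scale, from 0) of each of the 9 genes in eWAT by strain and diet; points are libraries, and the bar beside them is the mean with its SD (n = 4). Gpd1 on control diet lies between 3853 and 5081 in C57BL/6 and between 7258 and 9909 in 129S1/SvImJ, and Dgat2 in 129S1/SvImJ lies between 16066 and 23240 on control diet and between 10046 and 11318 on the drug.

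In 129S1/SvImJ eWAT the drug changed 3 of the 9 genes, with Aqp7 and Dgat1 higher and Dgat2 lower, against 5.51% of all genes called. Aqp7 had 769, 862, 808 and 728 on control diet and 1719, 1732, 1785 and 1464 on the drug, so that no treated library came near a control. Its log2 difference was 1.08 ± 0.10 (2.11-fold, limma adjusted p = 5.35e-07). Dgat1 had 1117, 1163, 1275 and 1032 on control diet and 1596, 1584, 1478 and 1394 on the drug, again without overlap (0.40 ± 0.09, limma adjusted p = 0.00898). Dgat2, the other enzyme of the last step, moved the opposite way. Its values were 23240, 16066, 17219 and 17219 on control diet and 11028, 10236, 10046 and 11318 on the drug (log2 difference -0.78 ± 0.13, 1.71-fold lower, limma adjusted p = 6.53e-04).

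Gpd1, already high in this strain, had 8426, 7258, 9909 and 8635 without the drug and 10236, 11318, 9909 and 12430 with it. The groups met at 9909, and the log2 difference of 0.36 ± 0.12 did not pass the test (limma adjusted p = 0.0834). It was called without control replicate 3, the library at 9909 (0.44, limma adjusted p = 0.0455), and the authors' deposited table lists 0.60 for it with a p of 3.40e-05. Pck1 had 13106, 17219, 16066 and 13828 on control diet and 23240, 23240, 15186 and 23240 on the drug. Replicate 3 of the drug group lay among the controls, and the log2 difference of 0.48 ± 0.19 was not called (limma adjusted p = 0.170). In the authors' deposited table the same contrast of Pck1 had a log2 fold change of 0.73 and a p of 4.83e-05. Gyk did not overlap between groups (70, 58, 77 and 74 against 85, 97, 86 and 113) but was not called either (0.44 ± 0.16, limma adjusted p = 0.118). Gpam was lower in each treated library (1643 to 2166 against 2200 to 2654) without passing the test (-0.28 ± 0.19, limma adjusted p = 0.522). Agpat2 and Lpin1 overlapped between groups, with log2 differences of 0.15 and 0.09.

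Markers of other cells moved in the same libraries. In 129S1/SvImJ, 5 of 7 thermogenic adipocyte markers were called higher with the drug, and their summed level went from between 216 and 362 to between 970 and 2058. In C57BL/6, 2 of the 7 were called, with sums of 92 to 128 and 197 to 258. Of 8 adipocyte markers, 1 was called higher in C57BL/6, and 2 higher and 1 lower in 129S1/SvImJ, and of 7 macrophage markers none was called by limma in either strain (4 and 5 had an unadjusted p under 0.05, at median log2 differences of -0.63 and -0.54). The part of these cells in the changes of the members was not tested.

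The strains' responses differed by test for 1 of the 9 genes, against 0.21% of all genes. Gpd1 rose less in 129S1/SvImJ than in C57BL/6, with a difference between the log2 responses of -0.96 ± 0.17 (limma adjusted p = 0.0165). Without C57BL/6 drug replicate 3 this call was lost (-0.93, limma adjusted p = 0.0671). Aqp7, whose response was larger in 129S1/SvImJ, missed the threshold at 0.65 ± 0.14 (limma adjusted p = 0.0514). It was called when C57BL/6 control replicate 4 or 129S1/SvImJ drug replicate 4 was left out (limma adjusted p = 0.0147 and 0.0357). Dgat2 had -0.76 ± 0.18 (limma adjusted p = 0.103), and -0.92 (limma adjusted p = 0.00492) without C57BL/6 drug replicate 1, whose Dgat2 value of 7491 was the lowest of the 16 libraries. Pck1 (0.80 ± 0.27) and Agpat2 (-0.61 ± 0.17) were not called, with limma adjusted p of 0.274 and 0.167. For Gyk, Gpam, Lpin1 and Dgat1 the responses of the strains differed by -0.24 to 0.03 on the log2 scale.

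The strains themselves differed on control diet in 4 of the 9 genes, against 17.5% of all genes called. Gpd1 (0.89 ± 0.12, limma adjusted p = 3.00e-05), Agpat2 (1.00 ± 0.12, limma adjusted p = 1.07e-05) and Dgat2 (0.78 ± 0.13, limma adjusted p = 2.84e-04) were higher in 129S1/SvImJ. Aqp7 was lower there, by -0.75 ± 0.10 (limma adjusted p = 1.92e-05). For each of these 4 genes the 4 libraries of a strain lay wholly above or below those of the other, and the calls held whichever library was left out. How many of all genes did not overlap was not computed for this comparison alone. Agpat2 had 1037 to 1268 in C57BL/6 and 2663, 2116, 2487 and 2081 in 129S1/SvImJ. Dgat1 was also higher in each 129S1/SvImJ library (1032 to 1275 against 934 to 1003), but its log2 difference of 0.25 ± 0.09 was not called (limma adjusted p = 0.0674). Gyk (0.43 ± 0.16, limma adjusted p = 0.0655) and Gpam (0.45 ± 0.19, limma adjusted p = 0.130) overlapped. Gpam was called without C57BL/6 control replicate 4 (0.66, limma adjusted p = 0.00576), the library with 2654, and Gyk without C57BL/6 replicate 3 or 129S1/SvImJ replicate 2 (limma adjusted p = 0.0384 and 0.0453). Dgat1 was called without 129S1/SvImJ replicate 4 (limma adjusted p = 0.0472).

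With rosiglitazone, 2 of the 9 genes differed between strains, against 10.7% of all genes, and both were higher in 129S1/SvImJ. Pck1 had a log2 difference of 0.65 ± 0.19 (limma adjusted p = 0.0345) and Agpat2 one of 0.39 ± 0.12 (limma adjusted p = 0.0445). A share of 2 in 9 is not far from that among all genes, and neither call held throughout. The Pck1 call was lost without any 1 of 6 of the 8 libraries (limma adjusted p from 0.0872 to 0.106) and the Agpat2 call without any 1 of 5 (limma adjusted p from 0.0568 to 0.175). Gpd1 (-0.08), Aqp7 (-0.10) and Dgat2 (0.02), which set the strains apart on control diet, had small log2 differences on the drug, with overlapping libraries. The comparisons of this experiment share libraries, so their values are given side by side and not as independent results. In both diets endothelial markers were lower in 129S1/SvImJ, with 7 of 7 called on control diet and 3 of 7 on the drug. Thermogenic markers were higher there, with 4 of 7 and 5 of 7 called. Fibroblast markers were higher too, with 1 of 5 and 3 of 5 called, at median sums of 10265 in C57BL/6 against 19191 on control diet and 6916.5 against 14484.5 on the drug. The part of these cells was not tested.

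**Figure D2:**
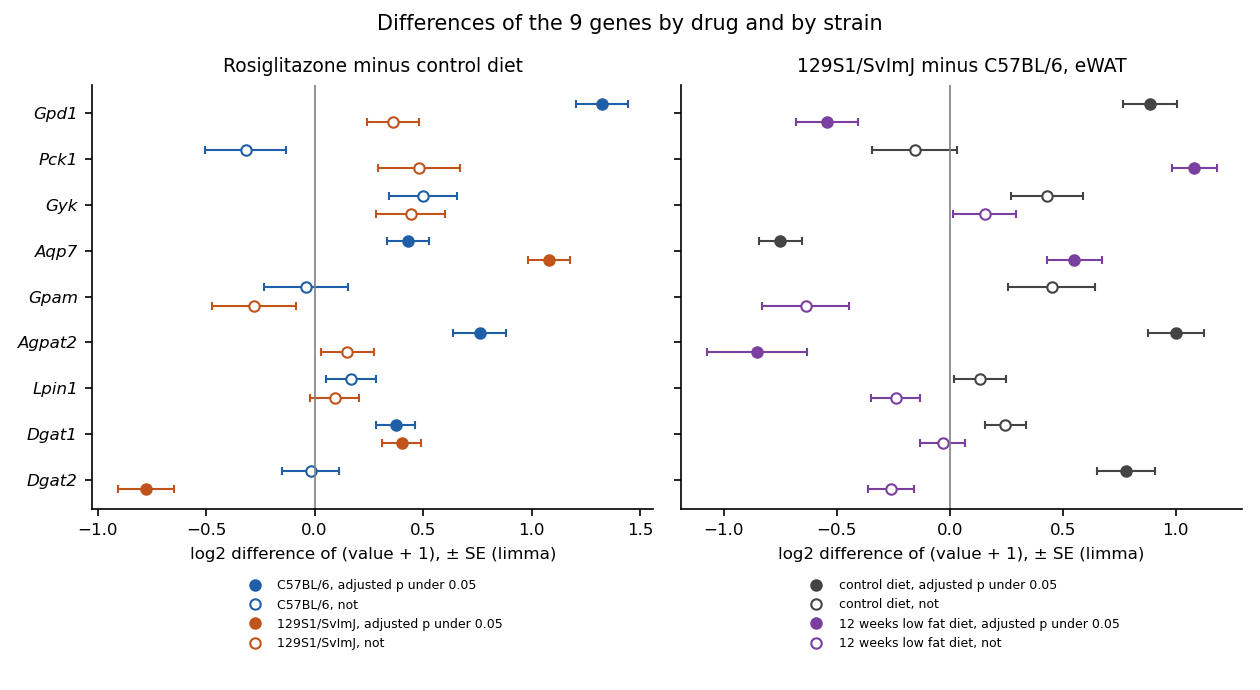
Log2 difference of (value + 1) with its SE for the 9 genes: on the left rosiglitazone minus control diet in each strain, on the right 129S1/SvImJ minus C57BL/6 in eWAT on control diet and after 12 weeks of low fat diet; filled points have a limma adjusted p under 0.05. Gpd1 and Agpat2 lie to the right of 0 on control diet (0.89 and 1.00) and to the left after 12 weeks (-0.54 and -0.85), and Aqp7 the other way round (-0.75 and 0.55). These are separate experiments, and the control diet was also a low fat diet, eaten from 6 to 18 weeks of age.

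A list of 23 further genes of the pathway, isoforms and neighbouring steps, gave 3 called in each strain with the drug, against 2.43% of all genes in C57BL/6 and 5.51% in 129S1/SvImJ. In C57BL/6 these were the acyltransferases Agpat9, now named Gpat3 (0.99 ± 0.15, limma adjusted p = 6.44e-04), Agpat3 (0.44 ± 0.10, limma adjusted p = 0.0212) and Agpat6, now Gpat4 (0.46 ± 0.12, limma adjusted p = 0.0349), and all were higher. In 129S1/SvImJ, Pck2, the mitochondrial isoform of Pck1, was higher (0.54 ± 0.12, limma adjusted p = 0.00750). Mogat2, an acyltransferase that makes diacylglycerol from monoacylglycerol, was lower (-2.20 ± 0.27, limma adjusted p = 2.48e-05), as was Agpat4 (-0.62 ± 0.18, limma adjusted p = 0.0453). The median log2 difference over the list was 0.08 in C57BL/6 and 0.09 in 129S1/SvImJ, beside 0 and -0.0046 over all genes.

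Mogat2 followed Dgat2 in direction in 129S1/SvImJ. It had 134, 92, 172 and 114 on control diet and 39, 25, 13 and 37 on the drug, without overlap. On control diet 6 of the 23 genes were higher in 129S1/SvImJ and none lower, against 17.5% of all genes called in either direction. They were led by Agpat9 (0.90 ± 0.15, limma adjusted p = 2.56e-04), Mogat2 (1.47 ± 0.27, limma adjusted p = 7.36e-04) and Bscl2, the lipid droplet protein seipin (0.61 ± 0.12, limma adjusted p = 0.00139). On rosiglitazone 1 was higher, Mogat1 (1.09 ± 0.27, limma adjusted p = 0.0146), against 10.7% of all genes called. No interaction of strain and drug was called by limma in the list, against 0.21% of all genes (3 of 23 had an unadjusted p under 0.05).

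After 12 weeks of low fat diet, 4 of the 9 genes differed between strains in eWAT, 2 in each direction, against 21.7% of all genes called. Strain coincided with the set of libraries here, and the part of the set was not tested. Over all genes the calls split into 2646 higher and 2327 lower, and into 2859 and 6339 after scaling by median ratios, where the 4 members were called and Gpam was added (limma adjusted p = 0.0230). Pck1 stood out, with 14713, 12534, 12327, 14237 and 13786 in C57BL/6 and 31744, 24405, 31744 and 27028 in 129S1/SvImJ. The strains were far apart, by 1.08 ± 0.10 on the log2 scale (2.12-fold, limma adjusted p = 5.29e-04). Aqp7 was also higher in 129S1/SvImJ, with 1828, 1528, 1206 and 1637 against 957 to 1118 (0.55 ± 0.12, limma adjusted p = 0.0179). Gpd1 and Agpat2 were lower there. Gpd1 had 7909, 9248, 7116, 7790 and 7975 in C57BL/6 and 4093, 5996, 5952 and 6160 in 129S1/SvImJ (-0.54 ± 0.14, limma adjusted p = 0.0297). Agpat2 had 1875, 2583, 2430, 1859 and 2118 against 790, 1393, 1125 and 1634 (-0.85 ± 0.22, limma adjusted p = 0.0323).

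None of these 4 genes overlapped between strains, and the share of all genes without overlap was not computed for this comparison alone. Even so, 2 calls were close to the threshold. The Gpd1 call was lost without C57BL/6 replicate 1, 2, 4 or 5 (limma adjusted p from 0.0606 to 0.0646) and the Agpat2 call without any 1 C57BL/6 library or without 129S1/SvImJ replicate 3 (limma adjusted p from 0.0512 to 0.0789). Gpam was lower in 129S1/SvImJ by -0.64 ± 0.19 and missed the threshold (limma adjusted p = 0.0545). Its values were 2786 to 3602 in C57BL/6 and 1623, 1637, 2972 and 2031 in 129S1/SvImJ, and it was called without the 129S1/SvImJ library at 2972 (-0.83, limma adjusted p = 0.00655). Gyk, Lpin1, Dgat1 and Dgat2 were not called, with log2 differences between -0.26 and 0.15. For 129S1/SvImJ against C57BL/6 the authors' deposited table lists -0.63 for Gpam (p of 1.50e-04) and -0.41 for Dgat2 (p of 0.00157). It lists -0.28 for Lpin1 (p of 0.0332), -0.03 for Dgat1 and -0.01 for Gyk.

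Gpd1, Agpat2 and Aqp7 thus differed between strains in opposite directions in the control diet experiment and in the 12-week experiment, without overlap in either. Over all genes, 1.46% did not overlap in either and pointed in opposite directions, and 5.47% did not overlap and pointed the same way. The difference between the experiments was not tested, and they were normalized apart. In the 12-week experiment strain also coincided with the set of libraries. In both the mice ate a low fat diet, in the control diet experiment from 6 to 18 weeks of age. The 2 names thus mark separate experiments and not a known difference in diet or its length. In the pathway list, Mogat2 (1.47 and -1.62) and Bscl2 (0.61 and -0.55) were called in both with opposite signs. Beside these values Nnt is given, a mitochondrial transhydrogenase that the C57BL/6J substrain is known to carry in a partly deleted form. The labels give no substrain, and the gene was chosen after its values were seen, so it is no test of the strain labels. Nnt was higher in each 129S1/SvImJ library in both experiments (221 to 275 against 105 to 142, and 302 to 390 against 163 to 188). Endothelial markers were lower in 129S1/SvImJ in both, with 7 of 7 called each time. Adipocyte markers differed, with 3 of 8 called higher on control diet, and 1 higher and 3 lower after 12 weeks. Their summed level was 156143 to 171615 in C57BL/6 and 122164 to 187358 in 129S1/SvImJ after 12 weeks, and the part of this in the members' differences was not tested.

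Of the 23 pathway genes, 12 were called between strains in eWAT after 12 weeks, 6 higher and 6 lower in 129S1/SvImJ, against 21.7% of all genes. Lclat1, a lysophospholipid acyltransferase, was higher (0.68 ± 0.06, limma adjusted p = 5.12e-04), while Pcx, the pyruvate carboxylase that feeds glyceroneogenesis, was lower (-1.32 ± 0.13, limma adjusted p = 7.00e-04), as was the lipin Lpin3 (-0.90 ± 0.18, limma adjusted p = 0.0109). Pcx had 13061 to 18270 in C57BL/6 and 5100 to 6784 in 129S1/SvImJ, a difference opposite in sign to that of Pck1. The list's median log2 difference was 0.05, beside 0 over all genes.

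In iWAT after 12 weeks none of the 9 genes was called by limma between strains, against 1.69% of all genes, and none of the 23 pathway genes was (1 and 3 had an unadjusted p under 0.05). Pck1 had 18270, 14713, 13786 and 22941 in C57BL/6 and 27028, 27028, 22941 and 31744 in 129S1/SvImJ. The strains met at 22941, and the log2 difference was 0.66 ± 0.19 (limma adjusted p = 0.207). The authors' deposited table lists 1.19 in favour of 129S1/SvImJ for Pck1 in iWAT, with a p of 3.44e-06. For Aqp7 the authors' deposited table lists 0.84 (p of 0.00141), for Dgat2 0.58 (p of 0.0189), and for Gpd1 and Agpat2 -0.03 and -0.09. In the fit made here, Aqp7 (0.45 ± 0.28), Gpd1 (-0.45 ± 0.30) and Agpat2 (-0.45 ± 0.19) overlapped, with limma adjusted p of 0.636, 0.671 and 0.413. Dgat2 overlapped too, at 0.03 ± 0.16. The authors' value lay above the one fitted here for each member except Gyk (-0.48 against -0.38). The C57BL/6 arm of this comparison is the 4 coarse libraries, in which 32.1% to 37.7% of rows stood at the floor, against 22.8% to 26.3% in 129S1/SvImJ iWAT.

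Between the depots, Gpam was the only one of the 9 genes called, and only in C57BL/6, against 13.1% of all genes called in that strain and 1.72% in 129S1/SvImJ, where 3 of the 9 had an unadjusted p under 0.05. A share of 1 in 9 is close to the share among all genes. Gpam, the mitochondrial enzyme of the first acylation, had 2894, 3602, 2786, 3417 and 2951 in C57BL/6 eWAT and 1428, 1471, 1496 and 1623 in iWAT. The depots did not overlap, with a log2 difference of -1.05 ± 0.18 (2.07-fold lower in iWAT, limma adjusted p = 0.00184). In 129S1/SvImJ the difference was -0.44 ± 0.19 (limma adjusted p = 0.331). The interaction of strain and depot was not called for Gpam (0.61 ± 0.26, limma adjusted p = 0.260) or for any other member by limma, against 3.14% of all genes, and 1 member had an unadjusted p under 0.05.

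Gpd1 was higher in iWAT than in eWAT in each library of both strains, but was not called (0.69 ± 0.22, limma adjusted p = 0.0576 in C57BL/6, and 0.78 ± 0.23, limma adjusted p = 0.150 in 129S1/SvImJ). Its iWAT values were 12016, 10268, 11101 and 19917 in C57BL/6 and 7601, 7909, 8826 and 14713 in 129S1/SvImJ. The highest in each strain was replicate 4, the library with the high Ucp1. Without these 2 libraries the C57BL/6 difference was 0.48 and was called (limma adjusted p = 0.0358), and it was also called without C57BL/6 iWAT replicate 2 alone (0.80, limma adjusted p = 0.0475). Gyk followed the same libraries in C57BL/6, with 102, 69, 86 and 326, and its depot difference there was 0.85 ± 0.37 (limma adjusted p = 0.159). The summed thermogenic markers were 5803 and 5104 in the pair of libraries with high Ucp1 and 373 to 1000 in the other 6. Lymphocyte markers summed to 1944 and 1627 in the same pair and to 4380 in 129S1/SvImJ replicate 1. Markers of the mesothelium, the lining of visceral fat, were near the floor in iWAT, with 6 of 6 called lower than in eWAT in both strains. Fibroblast markers were higher in iWAT, with 4 of 5 called in C57BL/6 (median sums of 16616 in eWAT and 41894 in iWAT) and 2 of 5 in 129S1/SvImJ (20658 and 35628). The part of these cells was not tested.

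In C57BL/6, 3 of the 23 pathway genes were called between depots, a share close to the 13.1% among all genes (1206 higher and 1786 lower in iWAT). All 3 were lower in iWAT, Pcx (-0.77 ± 0.14, limma adjusted p = 0.00351), Mogat2 (-2.77 ± 0.65, limma adjusted p = 0.0128) and Ppap2a, a lipid phosphatase (-0.41 ± 0.12, limma adjusted p = 0.0432). In 129S1/SvImJ none was called by limma (4 had an unadjusted p under 0.05). The coarse values of the C57BL/6 iWAT libraries enter each of these depot values. The depots also coincided with separate sets of libraries, whose part was not tested.

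**Figure D3:**
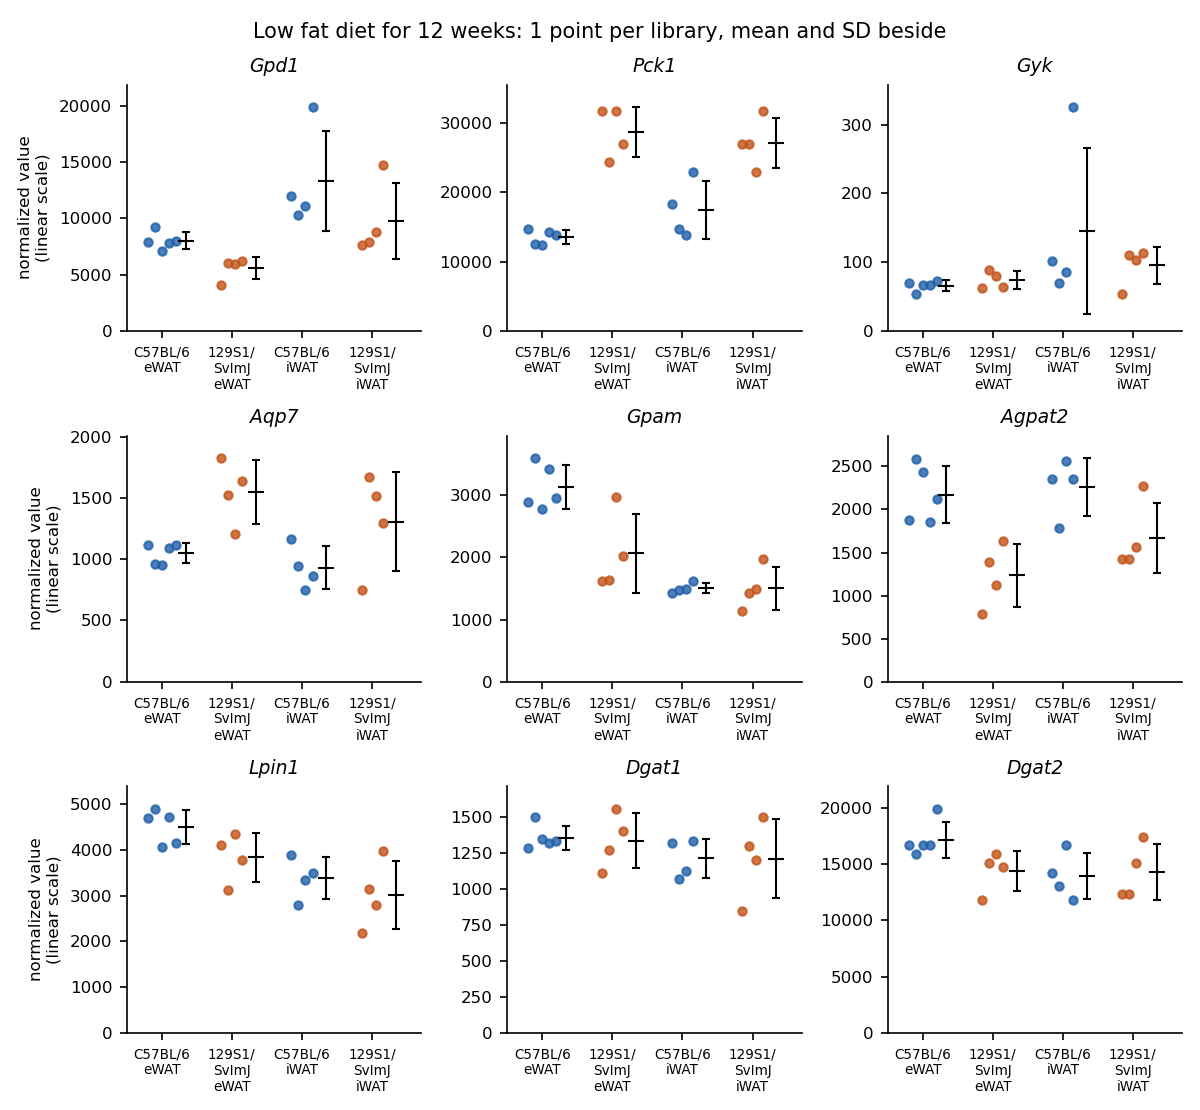
Normalized value (linear scale, from 0) of the 9 genes after 12 weeks of low fat diet by depot and strain; points are libraries, and the bar beside them is the mean with its SD (n = 5 for C57BL/6 eWAT, n = 4 otherwise). Pck1 in eWAT lies between 12327 and 14713 in C57BL/6 and between 24405 and 31744 in 129S1/SvImJ, and Gyk in C57BL/6 iWAT is 326 in 1 library and 69 to 102 in the others.

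On chow none of the 9 genes was called by limma between strains, against 4.99% of all genes, and none of the 23 pathway genes was (0 and 3 had an unadjusted p under 0.05). The values of the 129S1/SvImJ libraries were spread widely. In replicate 2, the library with Lcn5 at 58238, all members but Gyk had their lowest chow value: Gpd1 was at 1398 against 3705 to 6538 elsewhere, and Pck1 at 2603 against 10613 to 25444. Aqp7 was at 145 against 636 to 1301, and Dgat2 at 1967 against 8167 to 15514. The log2 differences ranged from -0.73 ± 0.50 for Dgat1 to -0.07 ± 1.18 for Gyk. Without replicates 1 and 2 of 129S1/SvImJ they ranged from -0.05 for Dgat1 to 0.65 for Pck1 among the members other than Gyk (-1.28), and none was called.

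Gyk behaved differently from the other members on chow. It had 82, 891, 64, 78 and 942 in C57BL/6 and 302, 1546, 80, 78 and 92 in 129S1/SvImJ, so that 4 of the 10 chow libraries stood above the other 6 (64 to 92). In the same 4 libraries the epithelial genes Krt8 (469 to 1081), Epcam (425 to 1189) and Cdh1 (328 to 1443) were high. In the other 6 libraries Krt8 was between 8 and 71, and Epcam and Cdh1 were at 7 or below. Crisp1 was high in the 129S1/SvImJ pair of these libraries and at 6 and 7 in the C57BL/6 pair. The part of epithelial tissue in the Gyk values was not tested. In the 25 eWAT libraries of the other experiments Gyk lay between 44 and 113.

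**Figure D4:**
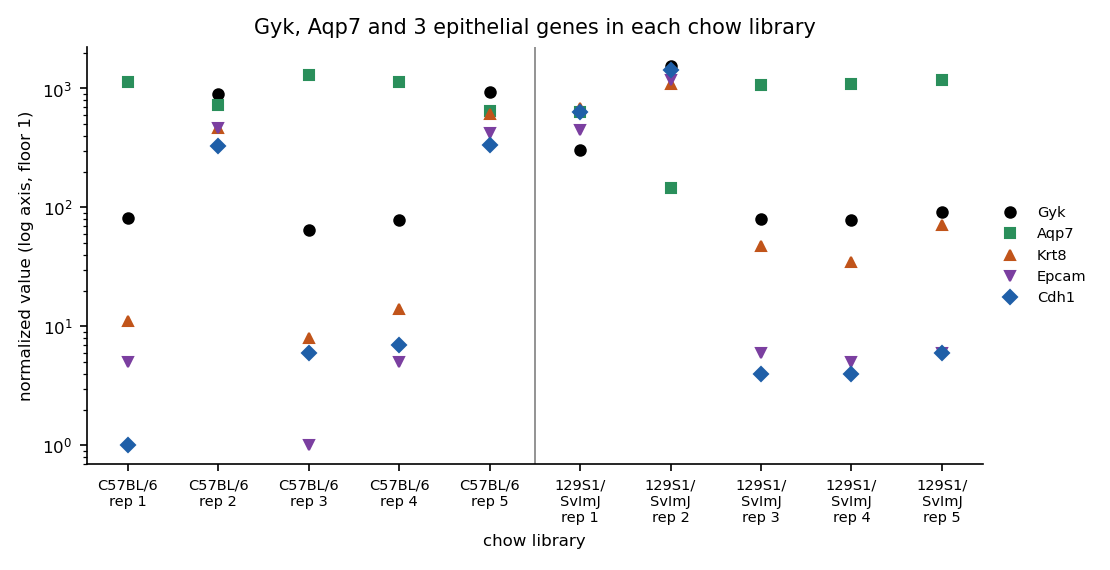
Normalized value (log axis, floor 1) of Gyk, of the glycerol channel Aqp7 and of the epithelial genes Krt8, Epcam and Cdh1 in each of the 10 chow libraries, with C57BL/6 on the left and 129S1/SvImJ on the right. The 4 libraries with Gyk at 302 or above are those with Epcam at 425 or above.

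Ratios within a library, given as descriptions without a test, showed how the balance of the steps varied. The ratio of Dgat2 to Dgat1 was 11.05 ± 0.84 (SD, n = 4) on control diet and 8.61 ± 2.05 on the drug in C57BL/6, and 16.2 ± 3.39 and 7.07 ± 0.72 in 129S1/SvImJ. Only the 129S1/SvImJ pair of groups did not overlap (13.5 to 20.8 against 6.46 to 8.12). After 12 weeks in eWAT, the ratio of Pck1 to Gpd1 was 1.70 ± 0.20 in C57BL/6 (n = 5). It was 5.39 ± 1.67 in 129S1/SvImJ (n = 4), with a lowest value of 4.07 above the highest C57BL/6 value of 1.86. On control diet the order was the opposite, 3.70 ± 0.87 in C57BL/6 against 1.79 ± 0.39 in 129S1/SvImJ, without overlap (2.49 to 4.57 against 1.56 to 2.37). The ratio of Gyk to Aqp7 was between 0.0298 and 0.102 in the 16 libraries of the drug experiment.

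The widest profiles over the 10 groups were those of Gpd1 (1.46 on the log2 scale between its highest and lowest group after centring within each normalization), Aqp7 (1.18) and Agpat2 (1.15). Among 9850 other genes with a mean of at least 50, the profiles nearest to Gpd1 were those of Cnr1, Sbk1 and Insig1, with root mean square differences of 0.19, 0.22 and 0.22. Nearest to Aqp7 were Tmem86a (0.09), Acvr1c (0.13) and Acad11 (0.15). Nearest to Agpat2 were Cspg4 (0.10), Brp44l (0.14) and Slc25a1 (0.15). The groups share libraries' normalization, and the likeness is given as a description over 10 groups.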

How the data were processed

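Total RNA (Trizol, then RNeasy) was made into TruSeq libraries and read on an Illumina Genome Analyzer, per the labels' protocols. The 49 labelled samples hold 43 libraries used here, while 5 samples of F1 mice and 1 nascent RNA sample were not analysed here. Per the submitters' processing notes, HOMER and mm9 were used. The counting and normalization steps are not stated in the sources used. As deposited, each of the 5 tables gives the authors' score per transcript and library, a whole number with a floor of 1 that was already normalized, so depth is unknown and no counting interval was computed. Chow, the drug experiment and the 12-week libraries were normalized apart from each other, as their highest values show (145538, 231290 and 267214). The eWAT and iWAT libraries of the 12-week experiments share the highest value of 267214, so the depots were taken as normalized together. Beside these stand the authors' log2 fold change and p-value for each transcript, whose method is unknown here. They are cited above only for some members and comparisons. All 51 value columns were mapped, leaving 0 unused.

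For 22869 symbols, log2(value + 1) was fitted in R 4.3.3 by limma 3.58.1 with trend and robust settings, after a test on simulated data. Fold changes are on that scale. Genes with a two-sided Benjamini-Hochberg adjusted p under 0.05, over all symbols, were called. Strain comparisons on chow and, per depot, after 12 weeks used only their own libraries, whereas the drug experiment shared 1 fit and the depots another. Alternatives were another pseudocount (5), a filter on low values (5), other limma settings, median-ratio scaling, the second transcript row, a replicate block, the compared groups alone and leaving out libraries. The members and lists were chosen with earlier results of these data known. By rule all 9 members were named, with up to 3 called genes of the pathway list per comparison by smallest p, and the 3 nearest profiles for the 3 members of widest profile. The search for promoter matches with 2 mismatches and 2 of the alternatives (leaving out 4 chow libraries with epithelial genes, or 2 iWAT libraries high in Ucp1) were chosen after seeing the data. Transcript lengths came from GENCODE vM21 through the RefSeq accessions, and promoters from RefSeq. In none of 9 sets of pairs did all same-numbered libraries deviate together (correlations from -0.49 to 0.52), so no pairing was used. Between strains, replicates 2, 3 and 4 did, with correlations of 0.44, 0.45 and 0.49 on chow and 0.19, 0.30 and 0.52 in iWAT. The other pairs of these sets were negative (-0.24 and -0.49 on chow, -0.16 in iWAT).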

Additional observations from a re-analysis of the deposited data

Results flagged for a closer look

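Among 90 sets of values (9 genes in 10 groups), 10 held a library farther from the others than Dixon's 95% limit. For values without ties, chance alone flags about 1 in 20. Where 3 of 4 values are equal, the remaining one is flagged at any distance, so that rate does not apply. In the drug experiment the flagged values were Gpd1 at 9191 in C57BL/6 drug replicate 1 below 3 equal values, Dgat1 at 1053 in C57BL/6 drug replicate 2, Pck1 at 15186 in 129S1/SvImJ drug replicate 3 below 3 equal values, and Dgat2 at 23240 in 129S1/SvImJ control replicate 1. After 12 weeks in eWAT, Gpd1 was low at 4093 in 129S1/SvImJ replicate 1 and Dgat2 high at 19917 in C57BL/6 replicate 5. In iWAT, Gyk was high at 326 in C57BL/6 replicate 4, which also had the high Ucp1, and low at 54 in 129S1/SvImJ replicate 1, which had the highest lymphocyte markers. Agpat2 was high at 2269 in 129S1/SvImJ replicate 4, the other library with the high Ucp1. On chow, Gyk was high at 1546 in 129S1/SvImJ replicate 2, the library with Lcn5 at 58238.

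The response of Gpd1 to rosiglitazone differed between the strains by the interaction test, by -0.96 on the log2 scale (limma adjusted p = 0.0165). Its treated libraries did not overlap with the controls in C57BL/6 and met them at 9909 in 129S1/SvImJ.

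Strain differences of 3 members pointed in opposite directions in the control diet and the 12-week experiment, without overlap of libraries in either, and the difference between experiments was not tested. Over all genes 1.46% did so. On the log2 scale, 129S1/SvImJ against C57BL/6, they were 0.89 and -0.54 for Gpd1, -0.75 and 0.55 for Aqp7, and 1.00 and -0.85 for Agpat2. In both experiments the mice ate a low fat diet, in the control diet experiment from 6 to 18 weeks of age. In the 12-week experiment strain coincided with the set of libraries, and the part of the set was not tested.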

How the results depend on the processing

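Counts of members called kept within 1.5 times in 77 of 89 alternatives that did not leave out a single library. The 77 include alternatives of comparisons with no called member, where the count stayed at 0 and there was no call to lose. Such comparisons were those on chow, between strains in iWAT, between depots outside C57BL/6, and of strain and depot. The share of 77 in 89 thus overstates how well calls held. On rosiglitazone the 2 strain calls fell to 0 without trend and robust settings and with the compared groups alone. The 4 drug calls in C57BL/6 fell to 1 (Gpd1) with the compared groups alone, where 73 genes in all were called against 556. The single interaction of strain and drug became 2 with the filter on low values, with array weights and with median-ratio scaling, each adding Aqp7, and 0 without trend and robust settings (7 genes in all against 48). The single depot call in C57BL/6 became 2 with the filter, with median-ratio scaling and without the 2 libraries high in Ucp1, each adding Gpd1, and with the compared groups alone, adding Lpin1. Leaving out 1 library at a time gave 0 to 2 members for the strains on rosiglitazone, 2 to 4 for the drug in C57BL/6, 0 to 2 for the interaction, 2 to 4 for the strains in eWAT after 12 weeks, and 1 to 2 for the depots in C57BL/6. The cause was not tested.

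With a replicate block, the strain calls in eWAT after 12 weeks fell from 4 to 1 member (Pck1) and from 4973 to 1277 genes. Gpd1, Aqp7 and Agpat2 were lost (limma adjusted p = 0.148, 0.0587 and 0.136). The labels do not say that equal numbers mark a pair. Same-numbered libraries of this comparison did not deviate together (correlations from -0.072 to 0.080), so these losses do not show a weaker effect. The block changed no other call of a member. It gave 252 genes on chow (1142 without it), 30 in iWAT (387), 256 between depots in 129S1/SvImJ (393) and 220 for strain and depot (717).

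On chow no member was called in any alternative, but signs changed. With array weights the log2 differences became 0.090 for Gpd1, 0.43 for Pck1, 0.0066 for Aqp7, 0.28 for Gpam, 0.23 for Agpat2 and 0.31 for Dgat2. Without 129S1/SvImJ replicates 1 and 2 they were 0.15 for Gpd1, 0.65 for Pck1, 0.22 for Aqp7, 0.46 for Gpam, 0.38 for Agpat2, 0.11 for Lpin1 and 0.44 for Dgat2. Without the 4 libraries with epithelial genes they were 0.11 for Gpd1, 0.31 for Pck1, 0.16 for Gyk, 0.23 for Gpam, 0.20 for Agpat2 and 0.26 for Dgat2. Leaving out 1 library gave -0.55 to 0.0055 for Gpd1, -0.38 to 0.44 for Pck1, -0.82 to 0.48 for Gyk, -0.73 to 0.016 for Aqp7, -0.25 to 0.24 for Gpam, -0.62 to 0.13 for Agpat2 and -0.47 to 0.28 for Dgat2. All genes called on chow came to 3690 with array weights, 2597 and 2469 without those 2 and those 4 libraries, and 655 to 2564 without 1 library.

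Elsewhere, Aqp7 between depots in 129S1/SvImJ was 0.030 with array weights, and Gyk between strains in iWAT was 0.0058 without the 2 libraries high in Ucp1 and -0.63 to 0.11 without 1 library. Of 33 member differences that were small (under 0.25) and never called, 18 changed sign in some alternative. The count of all genes also moved by over 1.5 times in iWAT between strains (230 with pseudocount 5, 254 with the filter, 584 with array weights, 157 with the second transcript row, 102 without the 2 libraries high in Ucp1), for the drug in C57BL/6 (368 without trend and robust settings), for the strains on rosiglitazone (1407 with the compared groups alone), for the interaction (84 with array weights), between depots in 129S1/SvImJ (211 with the compared groups alone, against 393) and in eWAT after 12 weeks (9198 with median-ratio scaling). Without 1 library it ranged from 68 to 194 in iWAT between strains (387 with all), 14 to 113 for the interaction of strain and drug (48), 275 to 741 for the drug in C57BL/6 (556), 1614 to 2664 for the strains on rosiglitazone (2443), 788 to 1158 for the drug in 129S1/SvImJ (1261), 231 to 435 between depots in 129S1/SvImJ (393) and 424 to 1122 for strain and depot (717). Depth is unknown, so what it limits could not be stated, and the coarse C57BL/6 iWAT libraries limit the depot values and the iWAT strain comparison.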
